A study of Mus musculus with 7 samples.

Results

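The 10 genes described here encode the signalling chains of the T cell receptor, its coreceptors, the constant region of the delta chain and the kinases next to the receptor: Cd3d, Cd3e, Cd3g, Cd247, Cd4, Cd8a, Cd8b1, Trdc, Lck and Zap70. They were listed by name from the 55450 genes in the count table, and all 10 had counts. The aim was to set the alpha-beta against the gamma-delta receptor signal, and ABT-263 against DMSO. The samples were dorsal skin of wild type C57BL/6 male mice aged 24 months, 1 library per mouse, sequenced in bulk from polyA RNA. The 4 control mice (480, 481, 482 and 483) received DMSO, the vehicle, and the 3 treated mice (476, 477 and 478) received 5 µM ABT-263, an inhibitor of the survival proteins BCL-2 and BCL-xL. In both groups hair was removed with clippers and Nair lotion, the skin was cleaned with ethanol, and the agent was applied to the skin under a semi-occlusive dressing for 5 days. Whole skin was homogenised with no sorting of cells, so a lower level can mean fewer T cells or less RNA per T cell, which cannot be told apart.

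A T cell recognises antigen through a pair of variable chains, alpha with beta or gamma with delta, that have almost no cytoplasmic part of their own. The signal passes through the CD3 gamma, delta and epsilon chains and the zeta chain encoded by Cd247, whose tyrosines are phosphorylated by LCK and then bind ZAP-70. CD4 and CD8 hold LCK close to the receptor of alpha-beta T cells. Mouse epidermis is populated by dendritic epidermal T cells, which carry a nearly uniform gamma-delta receptor and lack both coreceptors as a rule, and the dermis holds alpha-beta T cells and further gamma-delta T cells. CD8-positive cytotoxic T cells carry CD8 alpha with CD8 beta (Cd8b1), while some dendritic cells carry CD8 alpha without CD8 beta.

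The CD3 chain genes lie side by side on chromosome 9 of GRCm38, the assembly also called mm10. Cd3g spans chr9:44969572-44980431 on the minus strand, Cd3d spans chr9:44981786-44987339 on the plus strand, and Cd3e spans chr9:44998740-45009627 on the minus strand, with 1354 bases between Cd3g and Cd3d and 11400 between Cd3d and Cd3e. Cd8b1 (chr6:71322788-71337494) and Cd8a (chr6:71373427-71379173) are also neighbours, 35932 bases apart on the plus strand. Cd4 lies farther along that chromosome (chr6:124864692-124888221, minus strand), Cd247 at chr1:165788681-165877277 and Zap70 at chr1:36761798-36782818 (both plus), and Lck at chr4:129548344-129573641 (minus). Trdc (chr14:54142851-54148868, plus strand) lies within the T cell receptor alpha locus, upstream of Trac (chr14:54220521-54224206). Counts were made on the same strand, and among the members Cd247 shared the most exon sequence with another gene on its strand, 3.87% of its exon bases with Gm16565.

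The promoters of 7 members were matched by symbol to 10 RefSeq entries (GRCm38.p6), and Cd4, Cd8b1 and Trdc had no match. The 250 bases before the start are shown for Cd3d and Cd3g, whose start sites face away from each other across the short gap, for Cd247 as the receptor chain gene on another chromosome, and for Cd8a as the lowest of the matched members. Capitals mark the ETS core GGAAGT on either strand (ACTTCC when read on the other strand).
Cd3d, chr9:44981536-44981785, plus strand: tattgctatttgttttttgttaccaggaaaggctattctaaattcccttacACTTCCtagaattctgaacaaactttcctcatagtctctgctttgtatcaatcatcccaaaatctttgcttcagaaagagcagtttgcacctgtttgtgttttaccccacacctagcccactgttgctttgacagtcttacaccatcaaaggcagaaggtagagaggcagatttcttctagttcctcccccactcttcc
Cd3g, chr9:44980432-44980681, minus strand: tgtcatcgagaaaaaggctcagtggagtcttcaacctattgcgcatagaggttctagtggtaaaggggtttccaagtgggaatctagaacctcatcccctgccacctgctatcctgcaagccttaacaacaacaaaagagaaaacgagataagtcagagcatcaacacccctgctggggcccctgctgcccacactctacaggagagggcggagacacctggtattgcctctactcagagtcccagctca
Cd247, chr1:165788431-165788680, plus strand: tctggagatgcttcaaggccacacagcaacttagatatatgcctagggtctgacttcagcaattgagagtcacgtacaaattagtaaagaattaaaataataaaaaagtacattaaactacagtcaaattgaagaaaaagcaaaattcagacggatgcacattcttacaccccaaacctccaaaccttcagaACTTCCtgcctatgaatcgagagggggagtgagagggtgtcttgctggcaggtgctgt
Cd8a, chr6:71373177-71373426, plus strand: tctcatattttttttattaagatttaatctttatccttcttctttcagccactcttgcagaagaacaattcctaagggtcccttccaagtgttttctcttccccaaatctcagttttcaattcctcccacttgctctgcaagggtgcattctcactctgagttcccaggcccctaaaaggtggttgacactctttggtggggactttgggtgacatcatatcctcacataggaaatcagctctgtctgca
The ETS core was present in 6 of the 10 windows, those of Cd3d, Cd3e and Cd247, both of Lck and 1 of 3 of Zap70, and 19.7% of all 32851 mouse promoter windows of this length held it. The RUNX core TGTGGT was in 2 of the 10 (1 of Lck and 1 of Zap70) and in 14.0% of all windows. The GATA core AGATAA was in 1, that of Cd3g, and in 9.99% of all windows. Matches were sought on both strands, and no matches of different motifs overlapped. A match is a run of letters, not a measured binding site.

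The DMSO libraries held 20344364 to 26824123 counted read pairs and the ABT-263 libraries 27325963 to 43562330. The summed count of the 10 members was 448 to 1977 per library, so each rests on few reads. In the comparison of ABT-263 with DMSO by edgeR's quasi-likelihood test, 4342 of 17959 genes tested (24.2%) had an adjusted p under 0.05, 12.4% higher and 11.7% lower after ABT-263. A pair of libraries stood apart in lists other than the members, and they were singled out after the data were seen. DMSO mouse 481 had a summed level of hair follicle keratin and regulator genes of 2167 CPM (counts scaled to library size with TMM factors) against 29.8 to 33.2 CPM in the other DMSO mice, and ABT-263 mouse 476 had the highest summed level of macrophage, neutrophil and NK cell markers. The hair follicle sum also differed within the ABT-263 group, at 4.47, 10.6 and 409 CPM in mice 476, 477 and 478.

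None of the 9 members tested passed the threshold, against 24.2% of all genes, and by edgeR none had an unadjusted p under 0.05 either, against 40.1% of all genes. The log2 fold change was above 0 for 7 of the 9 and below 0 for 2, and its median was 0.48, while over all genes tested it was 0.00. No member separated the groups: in all 10 the ranges of the 3 ABT-263 and the 4 DMSO mice overlapped, whereas 37.1% of all genes tested did not overlap. Cd8b1 was too low to enter the test. The DESeq2 Wald test over all 30645 genes with a count, of which it called 17.0%, called 1 member, Cd8b1 (log2 fold change 2.83, adjusted p = 0.0452), and the edgeR fit over the same genes gave it an adjusted p of 0.205. Without mouse 476 its counts were too few to enter the edgeR test.

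**Figure D1:**
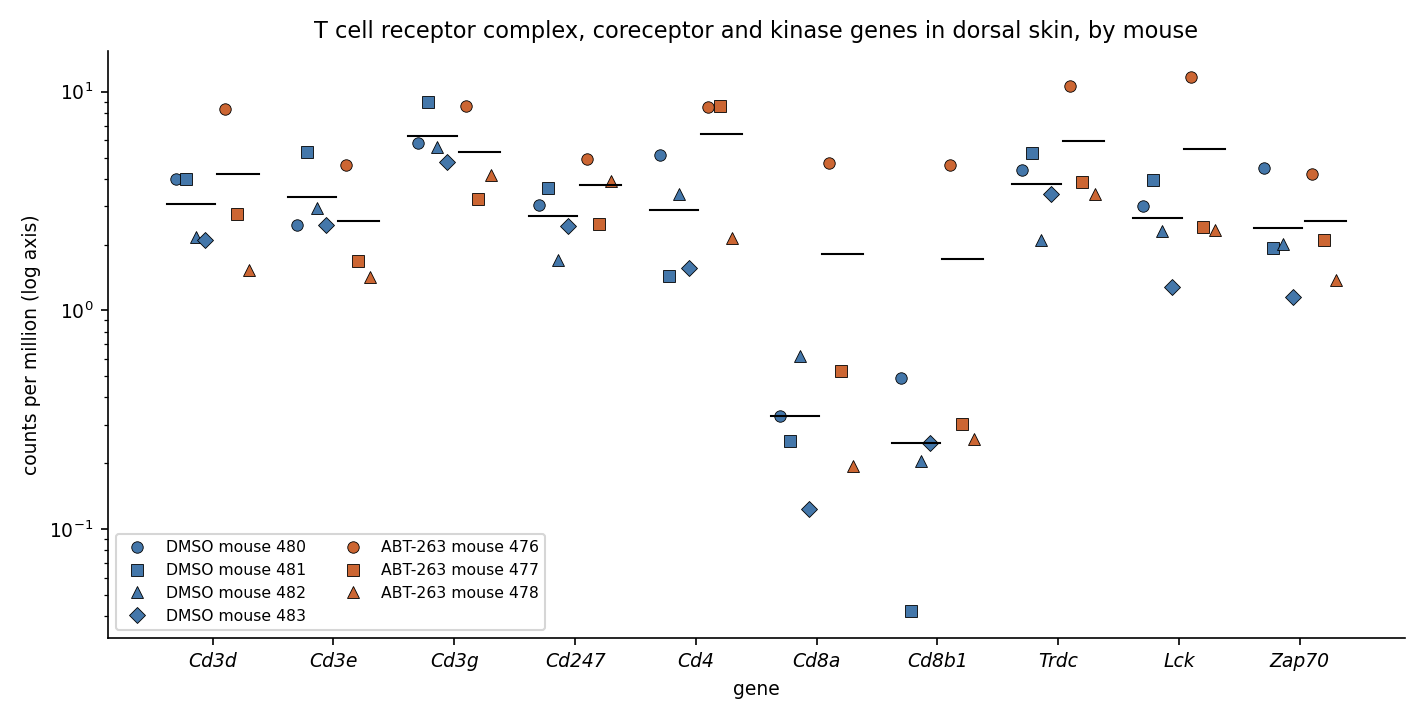
Level of each of the 10 genes in each mouse, in CPM on a log axis, with blue symbols for DMSO mice, orange symbols for ABT-263 mice and bars for the mean of each group. Mouse 476 was the highest of the 7 mice for 6 genes, and the groups overlapped for every gene.

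The 3 CD3 chain genes were present in every mouse, and none passed the threshold. The 95% intervals of their log2 fold changes were wide and held 0. They were -0.85 to 1.74 for Cd3d, -1.48 to 0.75 for Cd3e and -1.11 to 0.61 for Cd3g. Cd3d, the CD3 delta chain, was at 3.97, 4.003, 2.16 and 2.10 CPM in DMSO mice 480 to 483 and at 8.33, 2.77 and 1.53 CPM in ABT-263 mice 476 to 478 (log2 fold change 0.45, SE 0.56, adjusted p = 0.586). Cd3e, the CD3 epsilon chain that pairs with each of the other 2, was at 2.46, 5.31, 2.93 and 2.46 CPM in DMSO mice and at 4.61, 1.69 and 1.42 CPM in ABT-263 mice (log2 fold change -0.37, SE 0.49, adjusted p = 0.608). Cd3g, the CD3 gamma chain, was at 5.85, 8.97, 5.59 and 4.77 CPM in DMSO mice and at 8.58, 3.23 and 4.15 CPM in ABT-263 mice (log2 fold change -0.25, SE 0.38, adjusted p = 0.654). In all 3 genes mouse 476 was above the other ABT-263 mice, and for Cd3e and Cd3g DMSO mouse 481 was the highest of all 7. The fitted direction of Cd3d turned when mouse 476 was left out (log2 fold change -0.50, SE 0.43, adjusted p = 0.465). Without that mouse Cd3e was at -1.07 (SE 0.42, unadjusted p = 0.032, adjusted p = 0.123) and Cd3g at -0.76 (SE 0.32, unadjusted p = 0.0428, adjusted p = 0.147), and mice 477 and 478 lay below every DMSO mouse for both genes. In that fit 12.0% of 18576 genes tested had an adjusted p under 0.05. The share of all genes that separated or had such an unadjusted p without mouse 476 was not counted, so no decrease is read from these values. Without DMSO mouse 481 Cd3e and Cd3g were near 0, at -0.04 and -0.03.

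Cd247 encodes the zeta chain, which carries more phosphorylation motifs than any other chain of the complex and is also used by NK cell receptors. It was at 3.03, 3.62, 1.69 and 2.42 CPM in DMSO mice and at 4.90, 2.50 and 3.89 CPM in ABT-263 mice. Its log2 fold change was 0.48 (SE 0.34, 95% interval -0.30 to 1.25, adjusted p = 0.326), and it was 0.25 to 0.73 when each mouse in turn was left out. It was the only chain gene of the receptor complex among the members for which mice 476 and 478 both exceeded every DMSO mouse.

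The coreceptors differed from each other in where they were high. Cd4, the coreceptor of helper and regulatory T cells that some dendritic cells carry too, was at 5.11, 1.43, 3.39 and 1.56 CPM in DMSO mice and at 8.47, 8.59 and 2.15 CPM in ABT-263 mice. Mice 476 and 477 were above every DMSO mouse and mouse 478 was within their range (log2 fold change 1.15, SE 0.59, 95% interval -0.22 to 2.52, adjusted p = 0.186). Cd8a, the alpha chain of the coreceptor of cytotoxic T cells, had only 8, 6, 12 and 3 counts in DMSO mice and 132, 21 and 9 counts in ABT-263 mice, so 132 of its 191 counts came from mouse 476. As CPM these were 0.327, 0.253, 0.616 and 0.123 against 4.72, 0.529 and 0.193. Cd8b1, the beta chain, had the same pattern, with 12, 1, 4 and 6 counts in DMSO mice and 129, 12 and 12 in ABT-263 mice. Mice 477 and 478 lay within the range of the DMSO mice for both CD8 genes. The log2 fold change of Cd8a was the largest of the members, 2.45 (SE 1.06, 95% interval -0.0089 to 4.90, adjusted p = 0.126), and it was 0.15 (SE 0.78, adjusted p = 0.92) without mouse 476. The ratio of Cd8b1 to Cd8a counts in mouse 476, each count raised by 0.5, was 0.977. It was 1.47, 0.231, 0.36 and 1.86 in DMSO mice and 0.581 and 1.32 in mice 477 and 478. These ratios are not corrected for gene length, and outside mouse 476 they rest on few counts. Of the markers of dendritic cells that carry CD8 alpha alone, Xcr1 had 5, 9, 0 and 6 counts in DMSO mice and 7, 14 and 8 in ABT-263 mice, and Clec9a had 3, 7, 2 and 1 against 7, 8 and 19. Flt3 (2.93 CPM against 0.821 to 1.52 CPM in DMSO mice) and Itgax (9.80 CPM against 2.52 to 4.38 CPM), other dendritic cell genes, were highest in mouse 476. The summed level of all dendritic and Langerhans cell markers, a list that also holds Cd207 and Epcam, was lowest in mouse 476, at 103 CPM. It was 128 to 210 CPM in DMSO mice and 169 and 147 CPM in mice 477 and 478. Most of this sum came from genes other than Xcr1, Clec9a, Flt3 and Itgax, so it does not give the level of dendritic cells that carry CD8 alpha.

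The delta constant gene was present in every mouse. Trdc had 107, 125, 41 and 83 counts in DMSO mice and 298, 154 and 158 counts in ABT-263 mice, which as CPM was 4.38, 5.27, 2.10 and 3.41 against 10.7, 3.88 and 3.39. Mouse 476 was the highest and the other ABT-263 mice were within the DMSO range. The log2 fold change was 0.65 (SE 0.47, 95% interval -0.42 to 1.72, adjusted p = 0.332) and was -0.05 (SE 0.38) without mouse 476.

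The gamma constant genes did not follow Trdc. Tcrg-C1, the constant gene joined to the variable gene of dendritic epidermal T cells, was at 1.64, 2.53, 1.69 and 1.77 CPM in DMSO mice and at 0.322, 1.24 and 1.31 CPM in ABT-263 mice. Every ABT-263 mouse was below every DMSO mouse, as for 18.4% of all genes tested, but the change did not pass the threshold (log2 fold change -0.97, SE 0.47, adjusted p = 0.162). Tcrg-C2 had 34, 10, 3 and 1 counts in DMSO mice and 13, 57 and 32 in ABT-263 mice (log2 fold change 0.77, adjusted p = 0.558), and Tcrg-C4 had 9, 19, 2 and 14 against 2, 16 and 18 (log2 fold change -0.65, adjusted p = 0.543). The aligned parts of the Tcrg-C1 and Tcrg-C2 transcripts are 96.1% identical, so their split is uncertain. Mouse 476, with the most Trdc of all 7 mice, had the lowest summed level of the gamma-delta receptor genes other than Trdc, 1.11 CPM against 1.95 to 3.88 CPM in the other 6. The variable genes gave too few reads to compare. Trdv4, the delta variable gene of dendritic epidermal T cells, had 2, 3, 0 and 1 counts against 2, 1 and 14, and Tcrg-V5, its gamma partner, had none in any of the 7 libraries, where a count of 0 allows up to 3 counts per library. Tcrg-V6 and Tcrg-V4, used by dermal gamma-delta T cells, had 0 counts in every DMSO mouse and 2, 1 and 3, and 3, 0 and 0, counts in ABT-263 mice.

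Alpha-beta receptor transcripts differed by gene. Trac, the alpha constant gene, had 23, 16, 7 and 3 counts in DMSO mice and 130, 32 and 24 in ABT-263 mice, with mouse 476 again alone at the top (0.123 to 0.941 CPM against 4.65, 0.807 and 0.516 CPM, log2 fold change 1.89, SE 0.88, adjusted p = 0.148). Without mouse 476 its log2 fold change was 0.33 (SE 0.73, adjusted p = 0.796). Of the beta constant genes, Trbc2 was at 26.4, 11.8, 11.7 and 10.9 CPM in DMSO mice and at 12.8, 16.7 and 7.71 CPM in ABT-263 mice (log2 fold change -0.29, SE 0.39, adjusted p = 0.611), with its highest value in DMSO mouse 480. Trbc1 was at 6.22, 4.55, 5.49 and 4.64 CPM against 6.61, 6.48 and 4.62 CPM (log2 fold change 0.17, SE 0.22, adjusted p = 0.589). Per kilobase of exon the median over the 7 mice was 17.0 CPM for Trbc2, 7.33 CPM for Trbc1, 1.00 CPM for Trdc and 0.721 CPM for Trac. The aligned parts of Trbc1 and Trbc2 are 88.9% identical. Mouse 476 exceeded the mean of mice 477 and 478 by 7.03 times for Trac, 13.1 times for Cd8a and 16.5 times for Cd8b1, and by 1.19 times for Trbc1 and 1.05 times for Trbc2. None of the 3 alpha-beta and 3 gamma constant genes tested passed the threshold by edgeR or by the DESeq2 Wald test, and none had an unadjusted p under 0.05.

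Set against each other within a library, the summed counts of Trac, Trbc1 and Trbc2 were 7.63, 3.22, 8.23 and 4.57 times those of Trdc in DMSO mice and 2.26, 6.17 and 3.78 times in ABT-263 mice. The ranges overlapped, and the mean log2 ratio differed by -0.56 (two-sided exact permutation test over the 35 splits of the mice, p = 0.314, adjusted p = 0.471 over 9 ratios). With Trac alone in place of the 3 genes the sign turned (log2 difference 1.00, exact permutation p = 0.286). These are ratios of counts, not corrected for gene length. Trbc1 and Trbc2 gave most counts of the sum in every mouse. In mouse 476 Trac, Trbc1 and Trbc2 had 130, 185 and 358 counts, and in mouse 483 they had 3, 113 and 265. The ratio of the summed counts is thus mainly one of beta constant genes to Trdc. The smallest p that 4 against 3 mice allow is 0.0286.

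A further 8 ratios within libraries were compared in the same way, and none passed the threshold. The ratio of Trdc to Cd3e was 1.78, 0.992, 0.722 and 1.38 in DMSO mice and 2.31, 2.29 and 2.38 in ABT-263 mice, a mean 2.02 times higher. Every ABT-263 mouse was above every DMSO mouse (log2 difference 1.01, exact permutation p = 0.0571, adjusted p = 0.257), and the log2 difference was 0.79 to 1.22 when each mouse in turn was left out. Lck to Cd3e also separated the groups, at 1.21, 0.747, 0.791 and 0.521 against 2.51, 1.41 and 1.63 (log2 difference 1.20, exact permutation p = 0.0571, adjusted p = 0.257). Of all genes tested, 11.4% were higher relative to Cd3e in every ABT-263 mouse than in every DMSO mouse, and of the 6 members set against Cd3e these 2 were. Cd247 to Cd3e (log2 difference 0.96), Cd4 to Cd3e (1.59), Cd8a to Cd3e (1.88), Zap70 to Cd3e (0.59), Cd8b1 to Cd8a (0.40) and Cd8a to Cd4 (0.30) overlapped, with adjusted p of 0.257 to 0.857. The ratios to Cd3e share their denominator and are not independent of each other.

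**Figure D2:**
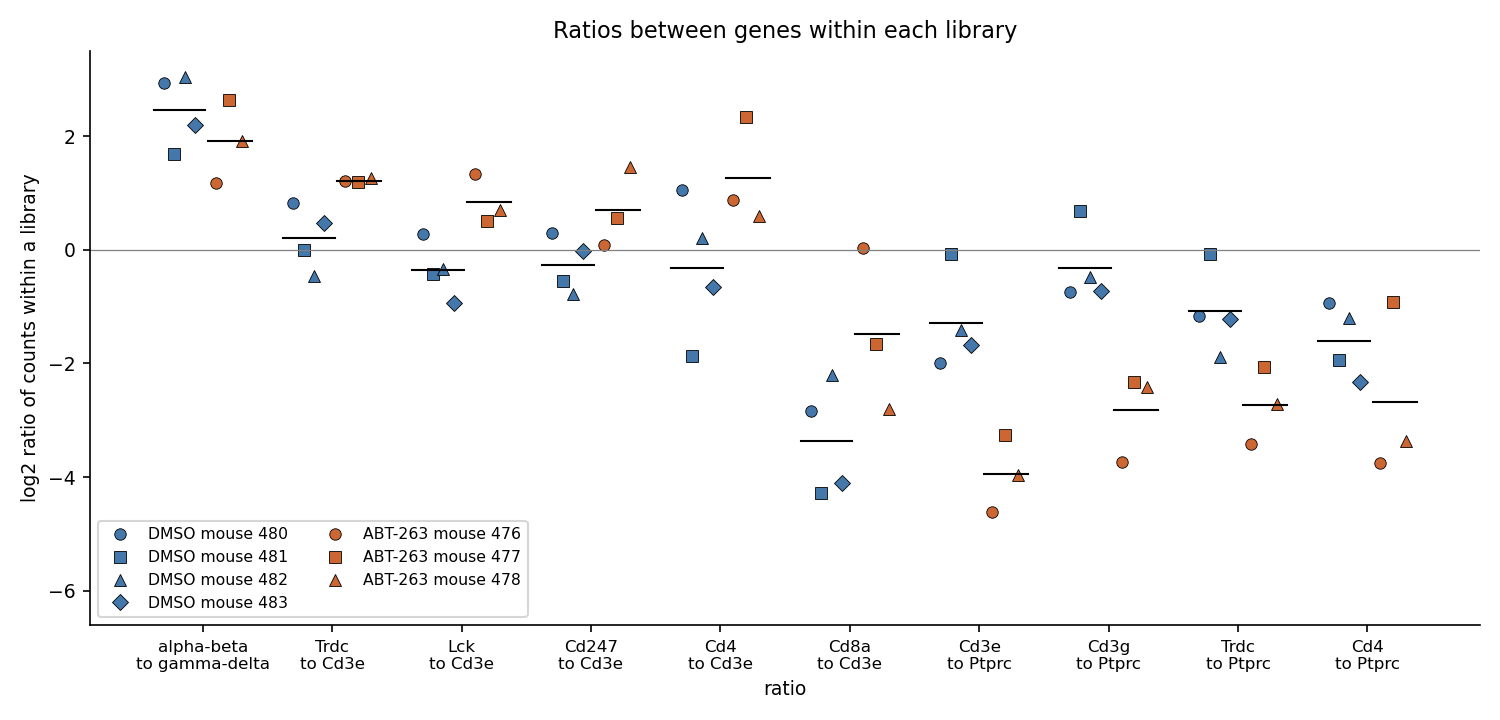
Log2 ratios of counts between genes of the same library, with blue symbols for DMSO mice, orange symbols for ABT-263 mice and bars for group means. Trdc to Cd3e lay at 2.29 to 2.38 on the linear scale in the 3 ABT-263 mice and at 0.722 to 1.78 in the DMSO mice, while the alpha-beta to gamma-delta ratio overlapped.

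The kinases were also highest, or nearly so, in mouse 476. Lck, the kinase that phosphorylates the CD3 and zeta chains, was at 2.99, 3.96, 2.31 and 1.27 CPM in DMSO mice and at 11.6, 2.39 and 2.32 CPM in ABT-263 mice (log2 fold change 1.04, SE 0.64, 95% interval -0.44 to 2.52, adjusted p = 0.263). Without mouse 476 its log2 fold change was -0.15 (SE 0.44). Zap70, the kinase recruited to the phosphorylated chains, was at 4.46, 1.94, 2.00 and 1.15 CPM in DMSO mice and at 4.18, 2.09 and 1.37 CPM in ABT-263 mice (log2 fold change 0.08, SE 0.53, adjusted p = 0.924). Its highest value was in DMSO mouse 480 and its fitted direction turned when mouse 476 was left out (-0.46, SE 0.54).

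Across the members, mouse 476 was 1.53 to 16.5 times the mean of mice 477 and 478, with the smallest ratio for Cd247 and the largest for Cd8b1. With mouse 476 left out, the log2 fold change was above 0 for 3 of the 9 members tested and below 0 for 6, its median was -0.15, and the smallest adjusted p was 0.123. Per kilobase of exon, the scale on which genes can be compared, the median level over the 7 mice fell in the order Cd3g (1.71 CPM), Cd3d (1.53), Trdc (1.00), Cd4 (0.84), Lck (0.82), Zap70 (0.67), Cd3e (0.60), Cd247 (0.57), Cd8b1 (0.17) and Cd8a (0.09). All neighbours in this order overlapped in their ranges. The order between neighbours held in 6 of 7 mice for Cd3d over Trdc, Lck over Zap70 and Cd247 over Cd8b1, and in 3 to 5 of 7 for the other pairs.

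**Figure D3:**
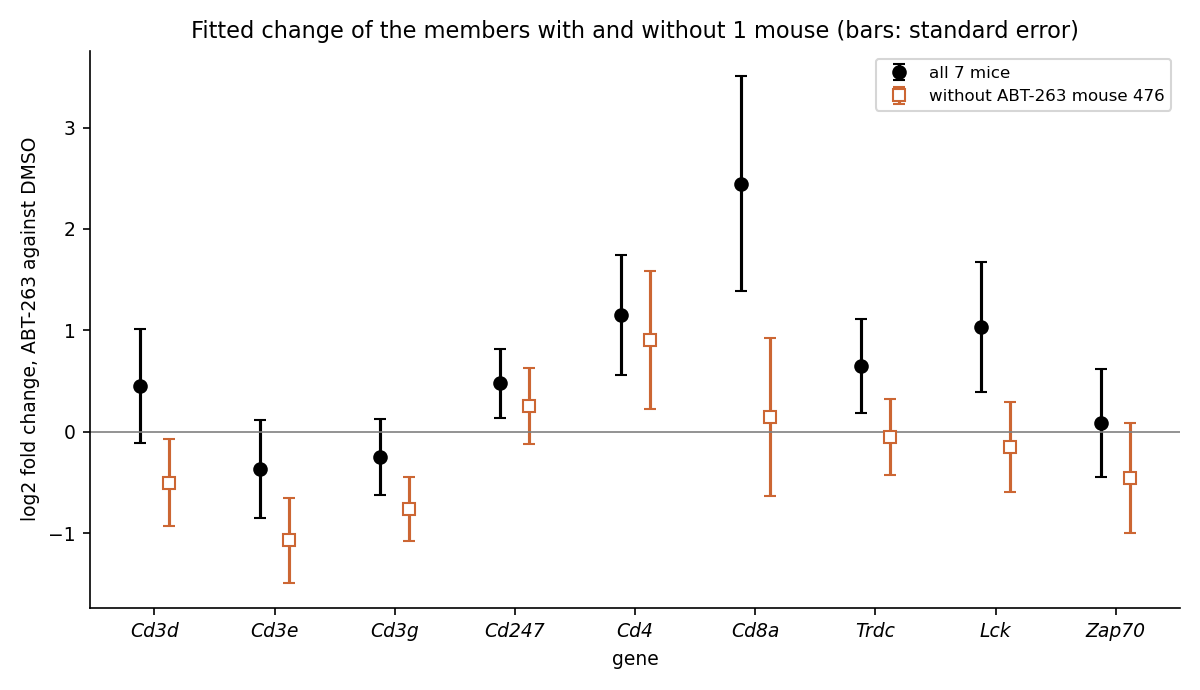
Fitted log2 fold change of the 9 members tested, ABT-263 against DMSO, with the standard error as bars, for all 7 mice (black circles) and without ABT-263 mouse 476 (orange squares). The value of Cd8a went from 2.45 to 0.15 and the median of the 9 from 0.48 to -0.15.

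Several genes that act next to the receptor passed the threshold, and many of them also work in other leukocytes and in skin cells. Of 23 tested genes of proximal receptor signalling, 7 rose (30.4%, against 12.4% of all genes tested) and none fell, with a median log2 fold change of 0.59. Fyn, a kinase related to LCK that many tissues use, had the smallest p, at 16.4 to 19.8 CPM in DMSO mice and 28.4, 28.4 and 31.7 CPM in ABT-263 mice (log2 fold change 0.72, SE 0.12, adjusted p = 0.00941). Malt1, a protease that links antigen receptors to NF-kB, was at 6.14 to 8.05 CPM against 20.1, 11.1 and 12.1 CPM (log2 fold change 1.08, adjusted p = 0.0179). The other 5, all outside the naming rule and named as the rest of this count, were Lcp2, Ptprc, Ptpn22, Bcl10 and Dgkz. Trat1, an adaptor bound to the receptor in T cells, had 4, 20, 11 and 13 counts in DMSO mice and 2, 9 and 13 in ABT-263 mice (log2 fold change -1.38, adjusted p = 0.156), and Grap2, an adaptor of T cells, did not pass either (log2 fold change -0.32, adjusted p = 0.559). The count of 7 was 3 without mouse 476, 3 without DMSO mouse 481 and 1 without DMSO mouse 482 or 483. Fyn passed with each of the 7 mice left out, and Lcp2, Ptpn22, Bcl10 and Dgkz did not pass without mouse 476.

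Ptprc encodes CD45, the phosphatase of all leukocytes that activates LCK. It was at 9.82, 5.56, 7.85 and 7.93 CPM in DMSO mice and at 114, 16.2 and 22.2 CPM in ABT-263 mice (log2 fold change 2.70, SE 0.66, adjusted p = 0.0268). All 3 ABT-263 mice were above every DMSO mouse for Ptprc, as for 18.7% of all genes tested. Without mouse 476 its log2 fold change was 1.31 (adjusted p = 0.0211). Relative to Ptprc counts, 7 of the 10 members were lower in every ABT-263 mouse than in every DMSO mouse, by 2.74 to 6.30 times for these 7, and Cd4, Cd8a and Cd8b1 overlapped. Of all other genes tested, 75.0% were lower relative to Ptprc in the same way, so this share is near the background. These 10 ratios were added after the values were seen, and their smallest adjusted p by the exact permutation test was 0.0714.

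Costimulatory and coinhibitory receptors showed 1 gene past the threshold of 16 tested (6.25%, against 24.2% of all genes tested). It was Havcr2, the coinhibitory receptor TIM-3 that macrophages also carry. It was at 0.632 to 1.31 CPM in DMSO mice and at 10.8, 1.61 and 1.87 CPM in ABT-263 mice (log2 fold change 2.34, adjusted p = 0.0446), and it did not pass without mouse 476 (adjusted p = 0.168). Cd69, an early activation antigen, had 8, 7, 0 and 0 counts in DMSO mice against 195, 25 and 26 in ABT-263 mice, with an adjusted p of 0.0552. Lag3 (log2 fold change -0.63, adjusted p = 0.172) and Tnfrsf4 (log2 fold change -0.15, adjusted p = 0.592) had the smallest p among genes with a negative change. The count of 1 was 4 by the DESeq2 Wald test and 3 with thinned libraries. It was 0 with no filter, with protein-coding and receptor genes only and with length and GC trends removed, 0 without mouse 481, 482, 483 or 476, 2 without mouse 480 and 3 without mouse 477.

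Of 11 tested T cell transcription factors, 1 rose and 2 fell (27.3% past the threshold, near the 24.2% of all genes tested). Gata3, the factor of type 2 helper T cells that keratinocytes and hair follicles also use, was at 317 to 491 CPM in DMSO mice and at 61.5, 137 and 98.8 CPM in ABT-263 mice (log2 fold change -2.03, SE 0.29, adjusted p = 0.00676). Bcl11b, needed for T cell commitment and likewise present in keratinocytes, was at 123 to 172 CPM against 44.8, 93.0 and 58.4 CPM (log2 fold change -1.20, adjusted p = 0.016). Ikzf1, a factor of all lymphoid and many myeloid cells, rose (2.65 to 4.004 CPM against 16.2, 4.94 and 6.27 CPM, log2 fold change 1.40, adjusted p = 0.0406) but did not pass without mouse 476 (adjusted p = 0.121). Ikzf3, its relative in lymphocytes, had an adjusted p of 0.112. The count of 3 was 1 without mouse 478.

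Of 14 tested survival and homing genes, 6 rose and 1 fell (50% past the threshold, against 24.2% of all genes tested). S1pr1, the receptor that guides lymphocytes out of tissue and that endothelium also expresses, was at 9.02 to 14.4 CPM in DMSO mice and at 48.5, 28.8 and 35.7 CPM in ABT-263 mice (log2 fold change 1.61, SE 0.22, adjusted p = 0.00628). Cxcr3, a chemokine receptor of effector T and NK cells, was at 0.506 to 1.18 CPM against 3.61, 2.19 and 2.62 CPM (log2 fold change 1.70, adjusted p = 0.0171), with an adjusted p of 0.0554 without mouse 476. Ccl27a, the keratinocyte chemokine that draws T cells to skin, fell from 34.9, 69.4, 40.8 and 60.0 CPM to 11.0, 19.1 and 19.9 CPM (log2 fold change -1.62, SE 0.31, adjusted p = 0.0124). Its receptor Ccr10, outside the naming rule and added here as its partner, had 4, 14, 16 and 9 counts in DMSO mice and 0, 6 and 5 in ABT-263 mice, too few to test. Ccr4, another skin-homing receptor, did not pass (log2 fold change -0.32, adjusted p = 0.624). S1pr1 and Ccl27a passed with each mouse left out, and the count of 7 was 4 without mouse 476, 481 or 483 and 3 without mouse 482.

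Of 10 tested genes that T cell activation induces, 3 rose (30%, against 12.4% of all genes tested) and none fell. Tnf was at 0.885 to 1.56 CPM in DMSO mice and at 27.0, 9.40 and 2.36 CPM in ABT-263 mice (log2 fold change 3.30, adjusted p = 0.0191), and macrophages make it as well. Gzmb, a granzyme of cytotoxic T and NK cells, was at 0.0843 to 0.327 CPM against 7.90, 0.807 and 0.795 CPM (log2 fold change 3.89, adjusted p = 0.0275), and its adjusted p was 0.0752 without mouse 476. Egr1, outside the naming rule, was the third, with an adjusted p of 0.028, and 0.0682 without mouse 476. Nr4a1 and Nr4a2, immediate early genes of antigen receptor signalling, had log2 fold changes of -0.38 and -0.33 (adjusted p = 0.497 and 0.609). The count of 3 was 1 without mouse 476 or 483 and 0 without mouse 482.

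None of the 11 tested genes that mark dendritic epidermal or dermal gamma-delta T cells passed the threshold by edgeR, against 24.2% of all genes tested (median log2 fold change 0.33). An unadjusted p under 0.05 was found for 2 of them, Jaml and Fcer1g, and the DESeq2 Wald test called 3, these 2 and Il17a. Cd7 (log2 fold change 0.03), Itgae (0.33), Xcl1 (-0.45), Klrk1 (0.46), Blk (0.44), Cd163l1 (-0.30), 5830411N06Rik (0.76) and Sox13 (0.00) had an adjusted p of 0.42 to 0.996. Jaml, a costimulator of epidermal T cells that neutrophils also carry, was at 2.75 to 5.81 CPM in DMSO mice and at 41.1, 5.19 and 3.85 CPM in ABT-263 mice (log2 fold change 1.93, adjusted p = 0.112), and its log2 fold change was 0.059 without mouse 476. Fcer1g, an adaptor of epidermal T cells and of most myeloid cells, was above every DMSO mouse in all 3 ABT-263 mice, as were 18.7% of all genes tested. Its level was 28.9 to 78.1 CPM in DMSO mice against 292, 83.3 and 83.7 CPM (adjusted p = 0.0769, and 0.301 without mouse 476). Il17a, the cytokine of dermal gamma-delta and helper T cells, had 3, 0, 0 and 0 counts in DMSO mice and 40, 6 and 106 counts in ABT-263 mice, and it was too low to enter the test. It was highest in mouse 478, not in mouse 476. By edgeR, 1 gene of the list passed without mouse 477 and 1 with no filter.

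The Skint genes, expressed by keratinocytes and required in part for the development of dendritic epidermal T cells, did not pass in any of 11 cases by edgeR or by the DESeq2 Wald test, and none had an unadjusted p under 0.05 (median log2 fold change -0.27). Skint3 (log2 fold change 0.76, adjusted p = 0.143) and Skint7 (log2 fold change -1.88, adjusted p = 0.17) had the smallest p in each direction, and Skint1, which selects these cells in the thymus, was at 7.02 to 13.4 CPM against 4.33, 11.6 and 17.0 CPM (log2 fold change 0.17, adjusted p = 0.804). Skint2 was at -0.57 (adjusted p = 0.356). Their summed level was 69.6 to 110 CPM in DMSO mice and 45.3, 77.4 and 142 CPM in ABT-263 mice, lowest in mouse 476. By edgeR, 1 Skint gene passed without mouse 476 and 1 without mouse 478.

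Among markers of other cells that share member genes, the NK cell and macrophage sums were highest in mouse 476. The dendritic and Langerhans cell sum was lowest in that mouse, at 103 CPM against 128 to 210 CPM in DMSO mice. Most of that sum came from genes other than Xcr1, Clec9a, Flt3 and Itgax. For the counts below, 12.4% of all genes tested rose past the threshold and 11.7% fell. NK cells also carry Cd247, Lck and Zap70, and of 7 NK markers 3 could be tested and 2 rose, Klrd1 (10 to 15 counts in DMSO mice against 105, 52 and 55) and Gzma (log2 fold change 3.97, adjusted p = 0.0445). Their summed level was 1.68 to 3.83 CPM in DMSO mice and 23.3, 2.75 and 3.93 CPM in ABT-263 mice, and Ncr1, the defining NK receptor gene, had 0 counts in every DMSO mouse and 8, 1 and 6 in ABT-263 mice. Both calls were lost without mouse 476 and without any of the DMSO mice, and 1 gene passed without mouse 478, with no filter, with a minimum of 10 counts or with thinned libraries. Of 9 macrophage markers 6 rose, and their sum was 394 to 1128 CPM in DMSO mice and 4012, 1287 and 1920 CPM in ABT-263 mice. That count was 3 without mouse 476 or 478, 1 without mouse 483 and 2 with no filter. Of 6 tested neutrophil markers 3 rose, with sums of 100 to 1822 CPM against 8377, 5098 and 5564 CPM. That count was 1 without mouse 476, 482 or 483 and 0 with no filter. Neither of 2 tested B cell markers passed (sums of 1.52 to 4.07 CPM against 5.40, 2.85 and 2.00 CPM), 1 of 7 tested dendritic and Langerhans cell markers rose (0 without mouse 481, 482, 483 or 478), and the keratinocyte markers, whose sums were 20567 to 50344 CPM in DMSO mice and 17813 to 50321 CPM in ABT-263 mice, held none past the threshold. None of the B cell and keratinocyte markers had an unadjusted p under 0.05 or was called by the DESeq2 Wald test. Of the remaining lists, 3 of 5 fibroblast markers rose, 1 of 5 skeletal muscle markers fell (0 without any 1 mouse other than 480), and by edgeR none of 7 hair follicle and none of 4 adipocyte markers passed, with 2 of each at an unadjusted p under 0.05 and 2 and 1 called by the DESeq2 Wald test. The part of NK, myeloid or dendritic cells in the levels of Cd247, Lck, Zap70, Cd4 and Cd8a was not tested. Nor was the cell source of the Trdc counts tested.

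**Figure D4:**
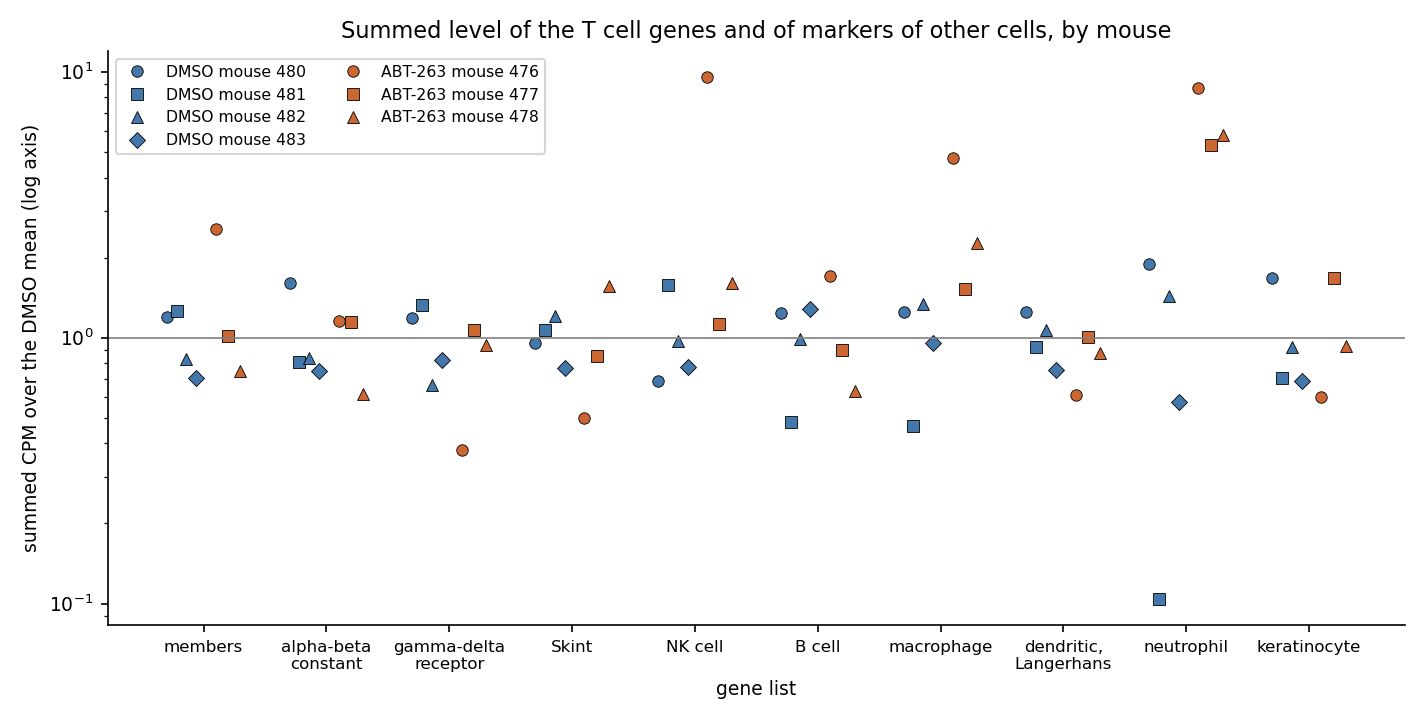
Summed level of each gene list in each mouse, as CPM divided by the mean of the 4 DMSO mice, on a log axis, with blue symbols for DMSO and orange for ABT-263. The members were at 19.5 to 34.8 CPM in DMSO mice and at 70.7, 28.0 and 20.7 CPM in ABT-263 mice, whereas the neutrophil markers were higher in every ABT-263 mouse.

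The 10 protein-coding genes whose levels over the 7 mice were most like the mean of the 3 CD3 genes, by Pearson's r of log2 CPM among 13673 genes, were D6Ertd527e, Ogfrl1, Tinf2, Marf1, Prf1, Prkar1a, Cited1, Id2, Mettl6 and Arid3a (r of 0.936 to 0.970). The 7 points share their libraries across genes, and the values are a description. Of these, only Prf1, the perforin gene, was on a list used here. Its log2 fold change was -0.39 (adjusted p = 0.661) and it was highest in DMSO mouse 481, as Cd3e and Cd3g were.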

How the data were processed

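PolyA RNA from dorsal skin of 7 mice was sequenced, 1 library per mouse, and groups were taken from the sample titles. The labels name no batch. The authors aligned reads to mm10 with STAR 2.7.9a and counted uniquely aligned proper pairs on the same strand per Ensembl gene with featureCounts (Subread 1.6.2), without mitochondrial genes. The counts were deposited without normalization or a filter. A second deposited table of variance-stabilised values was not used here.

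Of 55450 identifiers, 55190 were found in GENCODE M21 (GRCm38), the source of symbols, positions and lengths, and 30645 genes had a count. Counts were compared with edgeR 4.0.16 in R 4.3.3 (TMM, filterByExpr, robust quasi-likelihood test, two-sided, Benjamini-Hochberg adjustment over 17959 genes, threshold 0.05). The study's own design was a DESeq2 Wald test, run here with version 1.42.0 as an alternative on every gene with a count and without its filters. CPM are TMM-scaled, and a count of 0 allows up to 3 counts, for counting error only. Ratios within a library used counts plus 0.5 and an exact permutation test (4 against 3 mice, 35 splits). Likeness to the CD3 genes used log2(CPM + 0.1) among protein-coding genes with a mean of at least 1 CPM.

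Alternatives were DESeq2 size factors, no filter, a minimum of 10 counts per sample, protein-coding and receptor genes only, thinning to the smallest library, removal of length and GC trends (mgcv 1.9.3), a pseudocount of 1 for ratios, Trac alone, and leaving out each mouse. Leaving out mice 481 and 476 together and the ratios to Ptprc were chosen after seeing the data. Named genes are the members, every gene of the receptor and gamma-delta lists, the 2 genes with the smallest p in each direction of the other T cell and Skint lists, marker genes set beside a member, and the 10 genes most like the CD3 genes. A gene of these lists is not reported here. The members and the 19 lists (receptor constant and variable genes, gamma-delta and epidermal T cell genes, Skint, signalling, costimulation, transcription factors, survival and homing, targets and 10 cell type marker lists) were chosen with earlier results of these data known. The p-values measure the spread between these mice.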

Additional observations from a re-analysis of the deposited data

Results flagged for a closer look

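Among 55 measures of the members, lists and ratios, 6 had 1 of the 4 DMSO mice so far from the others that its gap to the nearest, as a share of the whole range, passed Dixon's 95% critical value. Chance flags about 1 in 20, or 2.75 of 55, and the group of 3 ABT-263 mice was not examined this way.

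Cd3e was 5.31 CPM in mouse 481 against 2.46 to 2.93 CPM in the other DMSO mice (0.835 of the range). Tcrg-C1 was 2.53 CPM in the same mouse against 1.64 to 1.77 CPM (0.854). The hair follicle markers summed to 2167 CPM there against 29.8 to 33.2 CPM (0.998). Trbc2 was 26.4 CPM in mouse 480 against 10.9 to 11.8 CPM (0.944), and with it the sum of the alpha-beta constant genes was 33.6 CPM against 15.7 to 17.5 CPM (0.897). The adipocyte markers summed to 1323 CPM in mouse 483 against 552 to 670.1 CPM (0.847).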

How the results depend on the processing

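No paired analysis was possible because the groups share no mouse numbers. The number of genes past the threshold, 4342, was 1735 to 4169 when each mouse was left out and 1692 without mice 481 and 476. The number of members past it was 0 in every alternative except the DESeq2 Wald test, which called 1, and it was 0 in each fit with a mouse left out. Leaving out each mouse, the log2 fold change of Cd3d was -0.50 (without 476) to 0.86, of Cd3g -0.76 to 0.046 (without 477), of Trdc -0.054 (without 476) to 0.94, of Lck -0.15 (without 476) to 1.44 and of Zap70 -0.46 (without 476) to 0.58. Zap70 was also below 0 without mouse 481 (-0.00937) or 483 (-0.15). Without mice 481 and 476 Cd3d was at -0.36 and Zap70 at -0.56. Among the ratios, the alpha-beta to gamma-delta log2 difference turned with Trac alone (1.00) and was -0.92 to -0.19 when each mouse was left out. Cd8b1 to Cd8a was -0.13 (without 481) to 0.87 and -0.19 without both mice. Cd8a to Cd4 was -0.66 (without 476) to 0.92, -0.17 when thinned and -0.44 without both mice, and Cd8b1 to Ptprc was -0.85 to 0.0263 (without 478). The cause was not tested. Cd247, Cd3e, Cd4 and Cd8a kept their direction in every alternative that could be fitted.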
